A study of Rattus norvegicus with 8 samples.

Results

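A set of 9 genes known as markers of the meninges and of fibroblasts was followed in medial prefrontal cortex of rats selected for high or low motor impulsivity. The genes were Slc6a13, Aldh1a2, Ogn, Igf2, Ptgds, Col1a1, Col1a2, Dcn and Lum. They were taken by gene symbol, 9 of the 17168 genes listed in each table. They were chosen by their expression in these same libraries, HI against LI with and without library HI1. The contrast between the groups and the standing of HI1 are therefore given for these genes as descriptions. Counts of members called by tests fitted over all genes are printed beside the background only, and nothing is read from them.

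All animals were male Sprague-Dawley rats, and the labels give no drug treatment, genotype or age. Rats with high motor impulsivity (HI, 4 libraries) were in the top quartile for premature responding when tested on the one-choice serial reaction time task, and rats with low motor impulsivity (LI, 4 libraries) were in the bottom quartile. The labels give 4 to 6 rats per phenotype and leave unstated whether a library is 1 animal, so SDs and SEs here measure the spread between libraries. RNA came from homogenate of the dissected region, and the labels do not say whether the meninges were removed.

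The meninges are the membranes that enclose the brain, and their inner layers contain fibroblasts that also accompany larger vessels into the tissue. Such fibroblasts lay down fibrillar collagen and the small leucine-rich proteoglycans that bind it. They also carry barrier transporters and make retinoic acid, insulin-like growth factor 2 and prostaglandin D synthase, the last of which is also made by oligodendrocytes and choroid plexus. In RNA from homogenate, more cells of a type and more RNA per cell cannot be told apart.

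Total counts ranged from 7354416 to 9476656 per library. The tissue label was checked with 9 markers of cortical excitatory neurons, such as Slc17a7 and Camk2a, and all were detected. Their summed level lay between 3083 and 3917 CPM (counts relative to library size, scaled by edgeR's TMM factors) in the 8 libraries. Ribosomal RNA took 25.5% of the counts of HI2, 0.406% of HI4 and 0.418% of LI3, and between 1.37% and 6.42% of the other 5.

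RefSeq upstream sequence (build GRCr8) was held for 6 of the 9 genes, in 7 windows from 250 bases before to 50 after an annotated start. The bases before the start are shown for Col1a2, Lum and Aldh1a2, because these are the genes of the set whose windows hold the letters CCAAT on either strand. CCAAT is the core of a promoter element that is well studied in the type I collagen genes. Matches to CCAAT on either strand and to TATAAA are in capitals. Each sequence runs 5′ to 3′ on the strand of the gene. The stretches are chr4:33518307-33518556 for Col1a2, chr7:34245456-34245705 for Lum and chr8:80758391-80758640 for Aldh1a2, all on the + strand.
Col1a2: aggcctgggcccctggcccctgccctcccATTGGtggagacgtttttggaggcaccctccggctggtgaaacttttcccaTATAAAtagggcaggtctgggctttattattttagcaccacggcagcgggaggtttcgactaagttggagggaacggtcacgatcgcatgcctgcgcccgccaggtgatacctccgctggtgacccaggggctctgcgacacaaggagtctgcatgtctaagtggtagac
Lum: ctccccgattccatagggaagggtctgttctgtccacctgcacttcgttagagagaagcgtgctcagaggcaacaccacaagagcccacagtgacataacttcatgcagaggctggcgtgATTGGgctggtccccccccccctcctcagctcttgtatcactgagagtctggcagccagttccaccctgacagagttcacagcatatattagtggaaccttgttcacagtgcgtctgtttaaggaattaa
Aldh1a2: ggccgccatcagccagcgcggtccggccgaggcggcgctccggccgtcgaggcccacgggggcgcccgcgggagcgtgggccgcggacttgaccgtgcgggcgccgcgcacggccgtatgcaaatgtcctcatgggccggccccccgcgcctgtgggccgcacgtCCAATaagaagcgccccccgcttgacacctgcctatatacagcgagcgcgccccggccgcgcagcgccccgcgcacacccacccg

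In Col1a2 the reversed CCAAT lay at position -221 and TATAAA at -170, counted to the first base of the match from the annotated start. In Lum the reversed CCAAT lay at -130, and in Aldh1a2 the forward CCAAT at -85. CCAAT occurred in 37.5% of all 33469 windows of this length and TATAAA in 14.2%. TATAAA was also found in Ogn. The GC box core GGGCGG, held by 33.1% of all windows, was found in Aldh1a2, Ptgds and both windows of Igf2. The AP-1 site TGACTCA (4.63% of all windows) and the forkhead core GTAAACA (3.78%) were searched on both strands and had no match in the 7 windows.

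All 9 genes had their highest level of the 8 libraries in HI1. In HI1 they stood between 2.21-fold (Dcn) and 8.10-fold (Lum) above the median of the other 7 libraries, and between 1.72-fold (Dcn) and 4.37-fold (Ptgds) above the next library. Over the 11631 genes tested, HI1 was the highest library for 11.3%. It exceeded 4 times the median of the other 7 for 0.473% of genes, 55 in all, of which 7 belonged to the 8 members tested. The other 7 libraries were not alike either. Their highest and lowest values differed from 3.14-fold in Dcn to 11.5-fold in Col1a2.

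**Figure D1:**
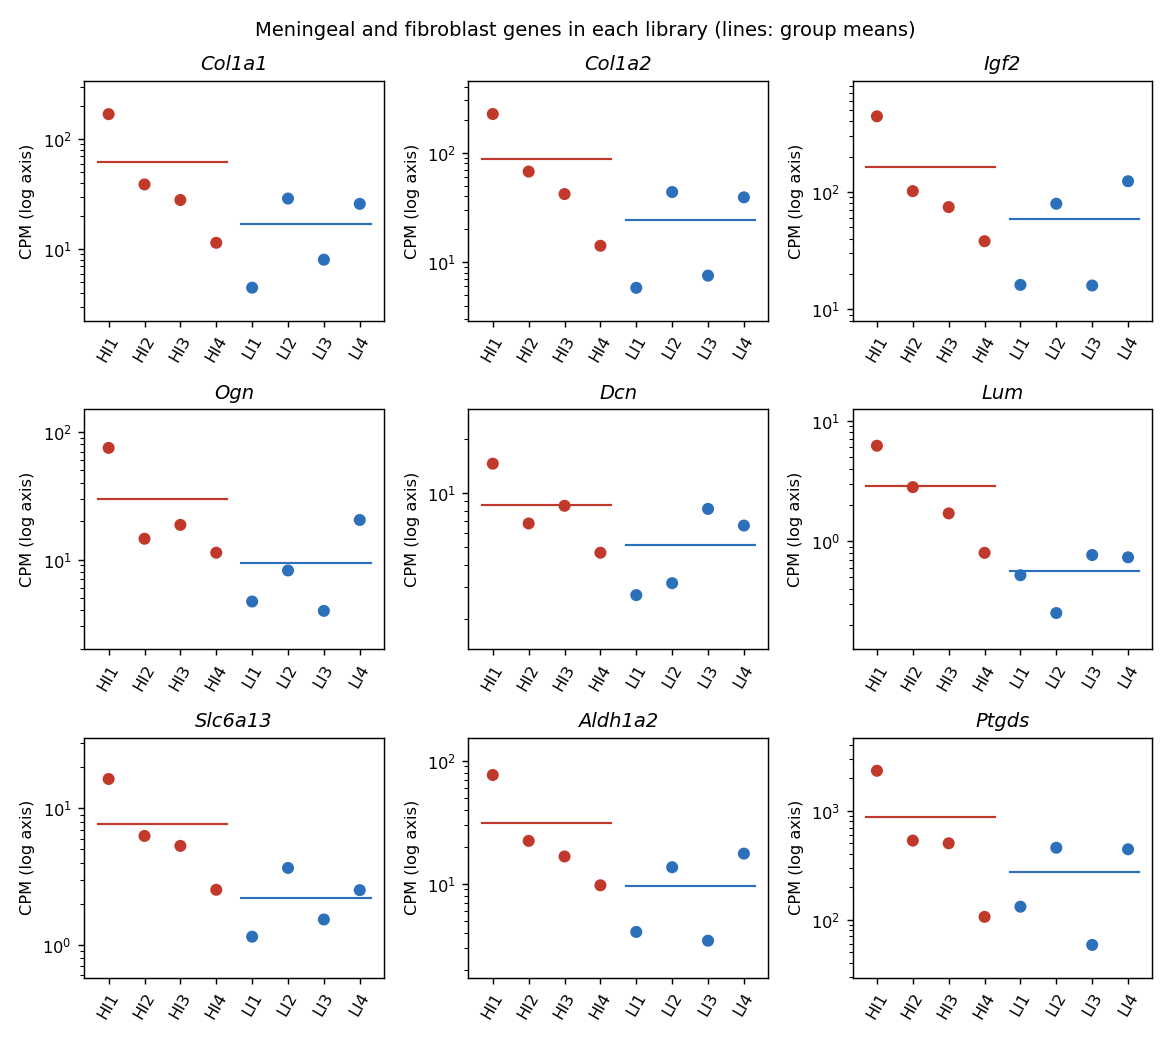
Level of each of the 9 genes in CPM (log axis) in each library, with HI in red, LI in blue and a horizontal line at the mean of each group. HI1 is the highest point in every panel, and the other HI libraries overlap with LI libraries in every panel but that of Lum.

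Type I collagen, the main fibrillar collagen of fibroblasts, is built from chains encoded by Col1a1 and Col1a2. Col1a1 stood at 169, 38.9, 28.0 and 11.5 CPM in HI1 to HI4 and at 4.48, 28.9, 8.04 and 25.9 CPM in LI1 to LI4. Col1a2 stood at 225, 67.1, 41.8 and 14.1 CPM in HI1 to HI4 and at 5.83, 43.7, 7.53 and 39.1 CPM in LI1 to LI4. In both genes LI2 and LI4 lay near HI3, and HI4 lay below both of them. Group means of Col1a1 were 61.9 ± 72.4 CPM in HI and 16.8 ± 12.3 in LI, and those of Col1a2 were 87.0 ± 94.6 and 24.0 ± 20.1 (SD, n = 4 each). The log2 fold change of HI over LI was 1.89 ± 0.82 (SE) for Col1a1 and 1.86 ± 0.86 for Col1a2, and without HI1 it was 0.63 ± 0.62 and 0.77 ± 0.73.

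Per length, the transcript level of Col1a2 exceeded that of Col1a1 in every library. The ratio of their TPM values (transcript levels scaled for length and depth) was 1.75 in HI1 and between 1.23 and 2.27 in the other 7. HI1 therefore lay inside the range of the other libraries for this ratio, although it was highest for both genes.

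Ogn, Dcn and Lum encode osteoglycin, decorin and lumican, small leucine-rich proteoglycans of collagenous matrix. Ogn stood at 75.1, 14.6, 18.7 and 11.3 CPM in HI1 to HI4 and at 4.69, 8.20, 3.96 and 20.4 CPM in LI1 to LI4. LI4 exceeded every HI library other than HI1. The HI mean was 29.9 ± 30.3 CPM and the LI mean 9.32 ± 7.63 (SD, n = 4). The log2 fold change of Ogn was 1.68 ± 0.69 (SE), and 0.67 ± 0.51 without HI1.

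Dcn had the smallest excess in HI1 and the smallest spread over the other libraries. It stood at 14.6, 6.78, 8.50 and 4.66 CPM in HI1 to HI4 and at 2.71, 3.16, 8.17 and 6.60 CPM in LI1 to LI4. LI3 was the lowest or next to lowest library for 7 of the 9 genes, but the third highest for Dcn. The TPM ratio of Dcn to Ogn was accordingly 3.50 in LI3, against 0.329 in HI1 and between 0.547 and 0.978 in the other 6. Decorin means were 8.63 ± 4.27 CPM in HI and 5.16 ± 2.66 in LI. The log2 fold change of Dcn was 0.76 ± 0.43 (SE), and 0.37 ± 0.41 without HI1.

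Lum was the least abundant of the 9 and did not pass the low-count filter. From HI1 to HI4 its counts were 60, 17, 16 and 6, and from LI1 to LI4 they were 5, 2, 6 and 7. In CPM these are 6.20, 2.81, 1.70 and 0.799 in HI and 0.521, 0.252, 0.766 and 0.733 in LI. Lum was the 1 gene of the 9 whose HI and LI values did not overlap; among the genes tested, 2.31% had every HI value above every LI value and 1.14% the reverse. The separation was narrow, as HI4 and LI3 each had 6 counts. In a fit with no low-count filter the log2 fold change was 2.31 ± 0.62 (SE). The ratio of group means was 5.07, and 3.12 without HI1.

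Slc6a13 encodes GAT2, a GABA and taurine transporter of the meninges. It stood at 16.4, 6.28, 5.31 and 2.53 CPM in HI1 to HI4 and at 1.15, 3.66, 1.53 and 2.51 CPM in LI1 to LI4. LI2 was the 1 LI library above the lowest HI library, HI4, although LI4 lay just below it. Means were 7.64 ± 6.08 CPM in HI and 2.21 ± 1.12 in LI. HI differed from LI by a log2 fold change of 1.80 ± 0.57 (SE), and 1.09 ± 0.45 without HI1, the largest of the 8 without that library.

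Aldh1a2 encodes retinaldehyde dehydrogenase 2, which makes retinoic acid. It stood at 76.6, 22.3, 16.7 and 9.72 CPM in HI1 to HI4 and at 4.06, 13.6, 3.45 and 17.6 CPM in LI1 to LI4. LI4 lay between HI2 and HI3, and LI1 and LI3 were the 2 lowest. Group means were 31.3 ± 30.6 CPM in HI and 9.68 ± 7.04 in LI. Its log2 fold change was 1.70 ± 0.70 (SE), and 0.74 ± 0.55 without HI1.

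Ptgds, prostaglandin D synthase, was by far the most abundant of the 9 transcripts per length. Its TPM was 7567 in HI1, against 257 for Igf2, the next in that library. Ptgds stood at 2323, 531, 502 and 106 CPM in HI1 to HI4 and at 131, 457, 58.6 and 442 CPM in LI1 to LI4. HI4 was below 3 of the 4 LI libraries. Group means were 866 ± 991 CPM in HI and 272 ± 207 in LI. HI exceeded LI by a log2 fold change of 1.67 ± 0.87 (SE), and 0.48 ± 0.72 without HI1. Oligodendrocytes also make Ptgds, and LI2, whose 10 oligodendrocyte markers summed to 6942 CPM against 1821 to 3744 in the other 7 libraries, had a TPM ratio of Ptgds to Igf2 of 31.85. The ratio was 29.4 in HI1 and between 15.9 and 44.4 in the other 6.

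Igf2, a growth factor released by meninges and choroid plexus, stood at 443, 102, 74.5 and 38.1 CPM in HI1 to HI4. In LI1 to LI4 it stood at 16.1, 79.5, 15.95 and 124 CPM. LI4 was the second highest library for Igf2, above HI2, HI3 and HI4. Group means were 164 ± 188 CPM in HI and 58.8 ± 52.6 in LI. Its log2 fold change was 1.48 ± 0.85 (SE), and 0.28 ± 0.69 without HI1, the smallest of the 8 without that library.

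Of the 8 tested members, 8 had a positive log2 fold change (48.5% of all genes tested) and their median log2 fold change was 1.69, while that of all genes tested was -0.01. A log2 fold change over 1 was found in 7 of the 8, and in 0.593% of all genes tested. Without HI1 all 8 were positive (46.7% of all genes), the median was 0.65 and 1 of the 8, Slc6a13, was over 1, as were 0.224% of all genes. In each fit that left out 1 of the other 7 libraries the value lay between 1.15 and 2.41 for the 7 tested genes other than Dcn, and between 0.53 and 1.06 for Dcn. HI1 thus moved these values more than any other single library did.

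**Figure D2:**
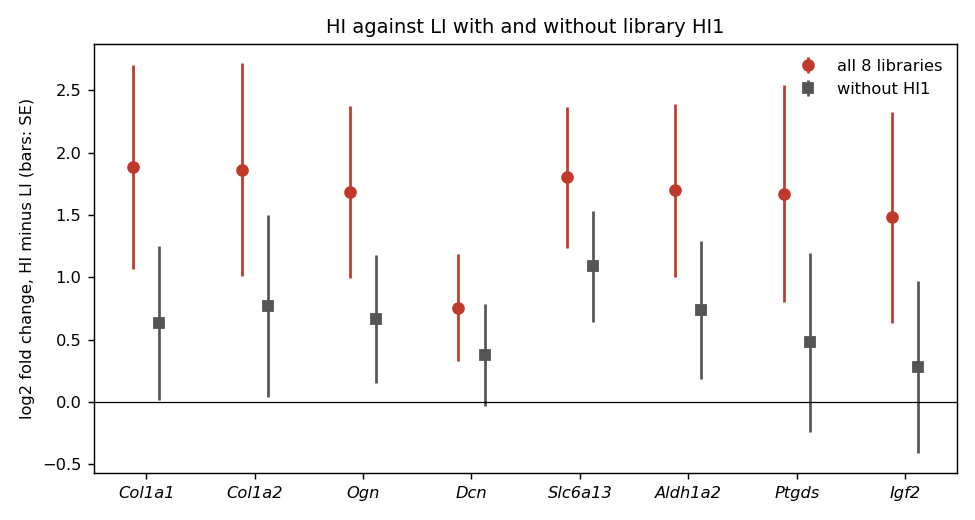
Log2 fold change of HI over LI for the 8 tested genes, with all 8 libraries (red circles) and without HI1 (grey squares); bars are SEs from edgeR's quasi-likelihood fit. Every value is above 0, and those without HI1 lie between 0.28 and 1.09.

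With edgeR's quasi-likelihood test no gene had an adjusted p under 0.1, so 0 of the 8 tested members did. The background was 0 of 11631 genes (0%), with 484 genes at an unadjusted p under 0.05, and it was also 0 without HI1, with 435 at an unadjusted p under 0.05. DESeq2 called 30 genes (0.403% of those with an adjusted p, 0.39% higher and 0.0134% lower in HI) and 0 of the 9 members, of which 3 were given no adjusted p. The series' design text names Fisher's exact test, which was run on counts summed over the libraries of a group and so does not see the spread between them. It called 8 of the 8 members higher in HI, where it called 56.7% of all genes, 12.7% higher and 44% lower. HI1 held 28.1% of all counts of the HI group but from 47.5% (Dcn) to 73.7% (Col1a1) of the HI counts of each member. With HI1 left out, Fisher's test called 6 of the 8 higher, where it called 60.5% of all genes (11.8% higher, 48.7% lower), and no longer called Dcn or Igf2. As the members were chosen on this contrast, these counts of calls are no evidence about them.

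The members varied together over the libraries. The member score, the mean over the 8 tested genes of log2 CPM minus the mean of the gene over all libraries, was 2.48 in HI1, followed by HI2 (0.65), HI3 (0.44), LI4 (0.33) and LI2 (0.03). HI4 (-0.73), LI3 (-1.51) and LI1 (-1.69) were lowest. The score was 0.71 ± 1.33 in HI, 0.12 ± 0.74 in the 3 HI libraries without HI1 and -0.71 ± 1.04 in LI (SD). Outside HI1 the libraries of the groups thus interleaved, with LI2 and LI4 between HI3 and HI4. HI4 and LI3 had the least ribosomal RNA, but LI1, with the lowest score, had 5.44% and HI1 had 6.12%. With the ribosomal RNA genes removed before the fit, the difference in member score between HI and LI was 1.4136, against 1.4152 with them. Any other part of ribosomal RNA in the score was not tested.

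Pearson correlations of log2 CPM between members are given over 8 libraries as a description, as the libraries share HI1. Among the 7 genes other than Dcn and Lum the 21 pairs ranged from 0.89 to 0.99, and without HI1 from 0.73 to 0.99. The closest pair was Col1a1 and Col1a2, at 0.99 with and without HI1, and Aldh1a2 and Igf2 stood at 0.99 and 0.97. Pairs with Dcn ranged from 0.51 to 0.82, and from 0.10 to 0.66 without HI1. Pairs with Lum ranged from 0.69 to 0.86, and from 0.35 to 0.66 without HI1, but Lum had 2 to 17 counts in those 7 libraries.

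**Figure D3:**
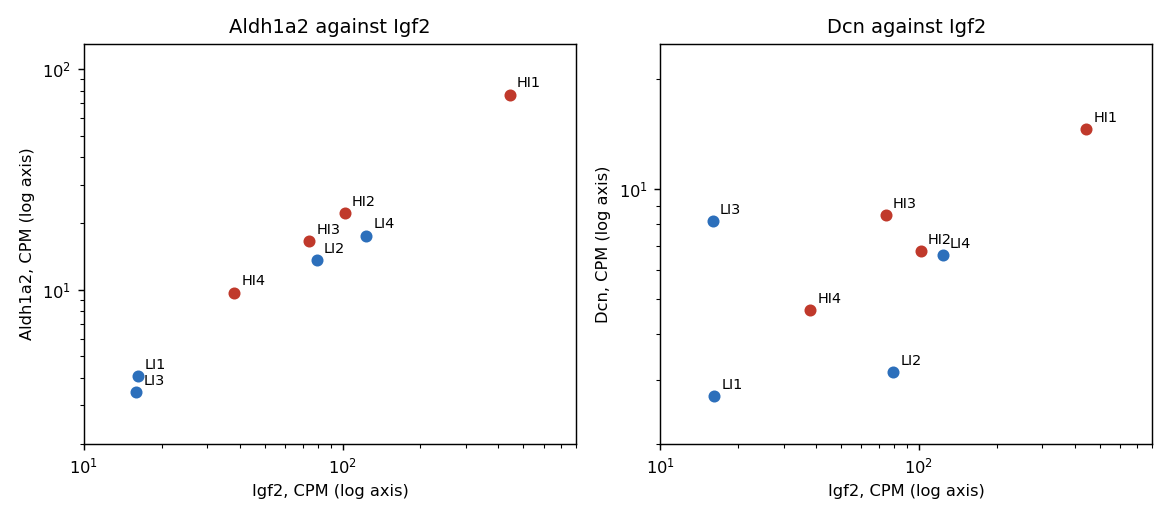
CPM of Aldh1a2 (left) and of Dcn (right) against Igf2 in each library, log axes, HI in red and LI in blue. Aldh1a2 follows the order of Igf2 closely, while for Dcn LI3 lies high at a low Igf2 value and LI2 lies low.

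Other meningeal and fibroblast markers had nearly the same order of libraries by score, with LI1 and LI3 exchanged. Of 32 listed, 28 were in the tables and 25 were tested. HI was higher in 24 of the 25, with 0 called, a median log2 fold change of 0.82, and 0.25 without HI1, where 22 of the 25 were higher. HI1 was the highest library in 23 of the 25. Slc22a6, an organic anion transporter, stood at 35.0 CPM in HI1 and from 0.255 to 9.09 CPM in the other 7, and Wnt6, a secreted signal, at 12.8 CPM against 0 to 3.80. Their log2 fold changes were 1.88 ± 0.92 and 2.13 ± 1.11 (SE), and 0.68 and 0.73 without HI1. The 2 most abundant of the list per length, Alcam and Cdh11, are adhesion molecules also made elsewhere in brain, and differed by 0.23 ± 0.17 and 0.10 ± 0.18.

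Other collagens went partly with type I. Of 10 tested, 6 were higher in HI and 4 lower, with 0 called and a median of 0.31 (0.09 without HI1). Col3a1, a fibrillar collagen that accompanies type I, stood at 110 CPM in HI1 and from 3.45 to 29.6 in the other 7, a log2 fold change of 1.80 ± 0.90 (SE). Col18a1, of basement membranes, stood at 42.0 against 4.08 to 20.2 CPM, and Col6a2, of beaded filaments, at 39.3 against 9.57 to 21.2 CPM.

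Genes that process collagen were mixed. Of 14 tested, 10 were higher and 4 lower in HI, with 0 called and a median of 0.17 (-0.01 without HI1). P4hb, a subunit of prolyl hydroxylase, and Sparc, a collagen-binding protein that many brain cells make, differed by -0.03 ± 0.12 and -0.12 ± 0.12 (SE). Pcolce, an enhancer of procollagen cleavage, stood at 17.99 CPM in HI1 and from 0.511 to 4.80 in the other 7. Adamts2, a procollagen protease, differed by 0.71 ± 0.31 and was highest in HI2. HI1 was the highest library for 6 of the 14 (42.9%, against 11.3% of all genes), among them Sparc, Pcolce, the collagen chaperone Serpinh1 and the crosslinking enzyme Loxl2. The list score was also highest in HI1 (0.54) and had a correlation of 0.91 with the member score over the 8 libraries, and of 0.81 without HI1.

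The other small leucine-rich proteoglycans tested, 4 of 8 in the tables, all had higher mean values in HI, with 0 called and a median of 0.75 (0.34 without HI1). HI1 was highest in all 4. Fmod, fibromodulin, stood at 81.8 CPM in HI1 and from 3.44 to 24.4 in the other 7, with a log2 fold change of 1.58 ± 0.67 (SE). Bgn, biglycan, stood at 145 against 25.9 to 89.8 CPM, and Prelp at 45.1 against 14.99 to 29.7 CPM.

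Lists around the transporter and the enzymes had medians near 0. Of 4 transporters related to Slc6a13 that were tested, 2 were higher and 2 lower in HI, with a median of 0.00. The creatine transporter Slc6a8 and the taurine transporter Slc6a6 differed by -0.11 ± 0.12 and 0.20 ± 0.13 (SE). Of 16 retinoic acid pathway genes, 9 were higher and 7 lower, with a median of 0.01. Within it Crabp2, a retinoic acid binding protein, stood at 12.6 CPM in HI1 and from 0.638 to 5.95 in the other 7, whereas Crabp1 differed by -0.69 ± 0.26 (SE). Rbp4, which carries retinol, and the receptor gene Rxrb differed by 0.31 ± 0.23 and -0.13 ± 0.25. Of 5 prostaglandin genes tested, 3 were higher and 2 lower, with a median of 0.00. The synthase genes Ptges3, Ptges2 and Ptgis differed by 0.00 ± 0.11, -0.18 ± 0.20 and 0.23 ± 0.38, and the cyclooxygenase gene Ptgs2 by 0.43 ± 0.19. Hpgds, the other prostaglandin D synthase, had 1 to 8 counts per library and was not tested. Genes called numbered 0 in each of the 3 lists. HI1 was the highest library for 2 of the 4 transporters, 6 of the 16 retinoic acid genes and 0 of the 5 prostaglandin genes. Over all genes tested that share was 11.3%. The scores of the 3 lists had correlations of 0.72, 0.76 and 0.51 with the member score, and of 0.70, 0.80 and 0.13 without HI1.

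In the insulin-like growth factor system 7 of 10 tested genes were higher in HI, with 0 called and a median of 0.18 (0.14 without HI1). Igfbp2, a binding protein, followed Igf2: it stood at 142 CPM in HI1, at 43.6, 18.3 and 4.66 CPM in HI2 to HI4 and at 12.2, 28.4, 2.81 and 33.1 CPM in LI1 to LI4. Its log2 fold change was 1.45 ± 0.91 (SE), and 0.20 without HI1. Igf1r, the receptor, differed by 0.48 ± 0.23, with HI4 and HI2 highest, and the binding proteins Igfbp4 and Igfbp7 by -0.41 ± 0.16 and -0.13 ± 0.19. H19, the imprinted neighbour of Igf2, had 0 to 7 counts per library.

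**Figure D4:**
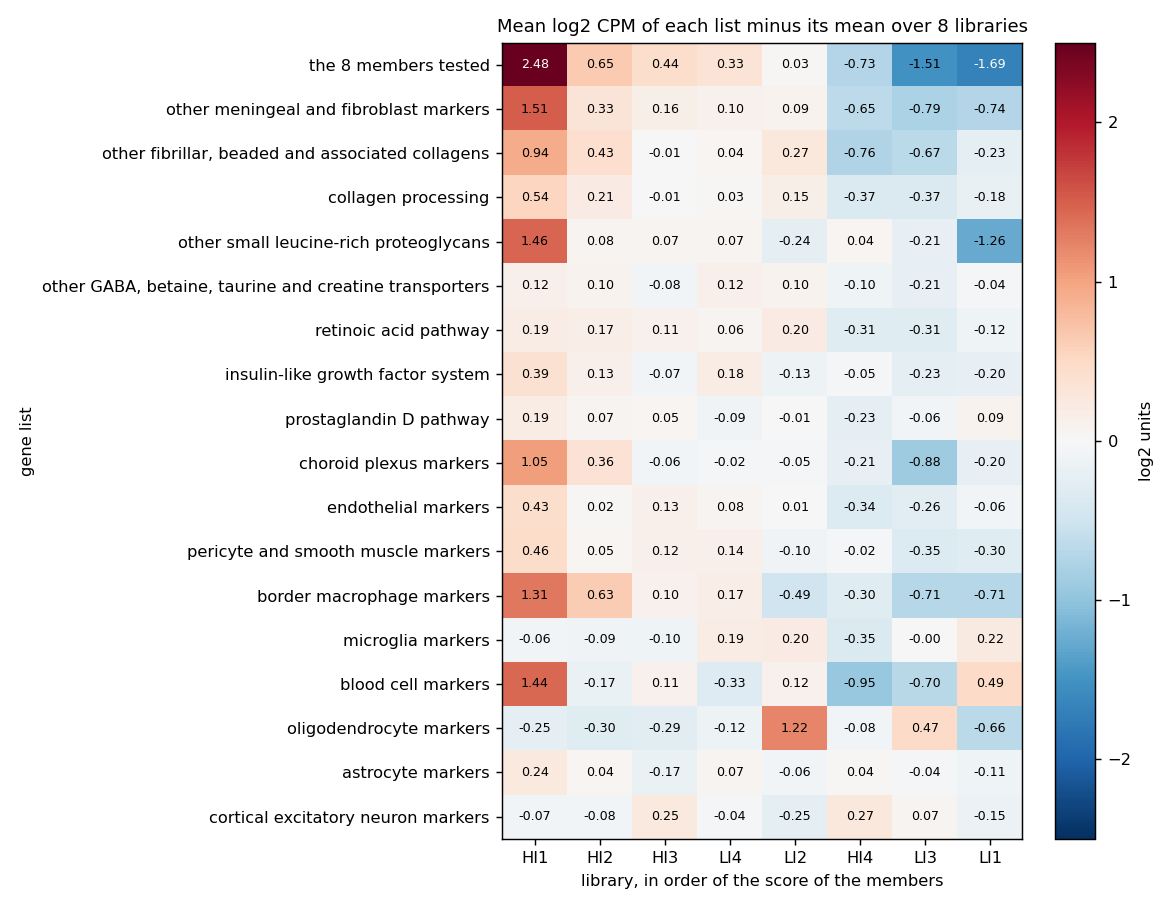
Score of each gene list in each library (mean over tested genes of log2 CPM minus the mean of the gene over 8 libraries; red higher, blue lower), with libraries in order of the score of the members. HI1 is high for the members (2.48), the other meningeal markers (1.51), the other small leucine-rich proteoglycans (1.46), blood cells (1.44), border macrophages (1.31) and choroid plexus (1.05), and near 0 for cortical neurons (-0.07).

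Summed markers of other cells of the brain surface and vessels also stood highest in HI1. Border macrophages live in the meninges and around vessels, and their 6 markers summed to 22.95 CPM in HI1, 7.85 to 11.9 CPM in the other HI libraries and 5.73 to 8.59 CPM in LI. Of the 3 tested, 2 were higher in HI: Mrc1, the mannose receptor, by 1.79 ± 0.63 (SE; 0.89 without HI1) and F13a1 by 1.63 ± 0.70 (1.11 without HI1), while Lyve1 differed by -0.11 ± 0.34. Ms4a7 had 0 or 1 counts. The 8 blood cell markers in the tables summed to 604 CPM in HI1, 169 to 298 CPM in the other HI libraries and 180 to 344 CPM in LI. All 5 tested were highest in HI1, and their median of 0.37 became -0.23 without it. The globin genes Hba1, Hba2 and Hbb differed by 0.34 ± 0.33, 0.37 ± 0.42 and 0.48 ± 0.56, and Alas2, of heme synthesis, by 0.68 ± 0.63. The 11 endothelial markers summed to 289 CPM in HI1, 181 to 239 CPM in the other HI libraries and 182 to 228 CPM in LI, and the 10 pericyte and smooth muscle markers to 201, 126 to 171 and 104 to 146 CPM. Of the 11 endothelial and 9 pericyte and smooth muscle markers tested, 9 and 9 were higher in HI, with medians of 0.15 and 0.27, and 0.00 and 0.17 without HI1. HI1 was the highest library for 9 of the 11 and for 3 of the 9, and for 2 of the 3 border macrophage markers tested. Over all genes tested that share was 11.3%. Vtn, a pericyte marker, stood at 59.1 CPM in HI1 against 12.9 to 25.6 CPM in the other 7. Among them Cldn5, Eng, Kdr and Vwf of endothelium differed by 0.03 ± 0.41, 0.19 ± 0.18, 0.45 ± 0.29 and 0.34 ± 0.23, and Rgs5, Vtn and Abcc9 of pericytes by 0.27 ± 0.18, 0.81 ± 0.39 and 0.39 ± 0.22. Genes called numbered 0 in all 4 lists, and their part in the values of the members was not tested.

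Choroid plexus, which also makes Igf2 and Ptgds, was followed by 13 markers, of which 9 were too low to be tested. The list score over the 4 tested was highest in HI1 (1.05), and HI1 was the highest library for 2 of the 4, Aqp1 and Kcnj13. Prlr was highest in HI4 and stood at 6.72 CPM in HI1, and Kcne2 was highest in HI2 (2.81 CPM) and stood at 1.55 CPM in HI1. The correlation of the list score with the member score was 0.90 over the 8 libraries and 0.77 without HI1. Ttr, its most abundant product, had 15 counts in HI1, 0 in the other HI libraries and 1, 2, 6 and 0 from LI1 to LI4, and Folr1 had 0 to 2. Otx2, Clic6 and Tmem72 were at 0 in HI1, whereas Kl had 10 counts there and 1 to 4 in the other 7. The 13 markers summed to 33.2 CPM in HI1, 17.2 to 45.3 CPM in the other HI libraries and 14.5 to 26.8 CPM in LI, and HI4 owed its value to Prlr (41.0 CPM). Of 4 tested, 3 were higher in HI, with a median of 1.02, and 0.40 without HI1 or without LI1. Besides Prlr they included the water channel gene Aqp1, which is also made outside the choroid plexus, at 16.3 CPM in HI1 against 0.511 to 4.79 CPM in the other 7. Kcnj13, a potassium channel gene, stood at 4.86 CPM in HI1 and from 0 to 1.49 in the other 7, differed by 1.53 ± 0.80 (SE) and did not pass the low-count filter without HI1. The part of choroid plexus RNA in the values of the members was not tested.

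Summed markers of the cell types of the cortical tissue itself lay inside the range of the other libraries in HI1. Microglia markers summed to 300.2 CPM in HI1 and to 240.3 to 336 CPM in the other 7, oligodendrocyte markers to 2240 against 1821 to 6942 CPM, and astrocyte markers to 2602 against 2164 to 2937 CPM. HI1 was the highest library for 0 of 9 microglia, 0 of 10 oligodendrocyte, 1 of 7 astrocyte and 2 of 9 cortical neuron markers. Those 2 were Cux2 (197.5 CPM against 113.6 to 171.4 in the other 7) and Camk2a (1692 against 1221 to 1562). In contrast, HI1 was the lowest library for Bcl11b (61.7 CPM against 71.0 to 131.9) and Fezf2 (60.7 against 71.0 to 127.7). The sum does not show these opposite differences, and their relation to the levels of the members was not tested. The medians of the astrocyte and cortical neuron lists were 0.01 and 0.15, with 4 of 7 and 7 of 9 higher in HI, while all 9 microglia markers had lower mean values in HI, with a median of -0.29. All 10 oligodendrocyte markers had lower mean values in HI (median -0.61, and -0.19 without LI2). Their part in the level of Ptgds was not tested. Mbp and Mag, of myelin, differed by -0.91 ± 0.34 and -0.72 ± 0.38 (SE). Among microglia genes C1qa, C1qb, Aif1 and Tmem119 differed by -0.24 ± 0.19, -0.19 ± 0.16, -0.32 ± 0.14 and -0.75 ± 0.21. The glutamate transporters Slc1a2 and Slc1a3 of astrocytes differed by 0.54 ± 0.17 and 0.02 ± 0.13 and the connexin gene Gjb6 by 0.34 ± 0.24. Gjb6 was the 1 astrocyte marker highest in HI1, at 71.5 CPM against 32.1 to 40.3 in the other 7, and its log2 fold change was -0.0014 without HI1. The astrocyte list score was also highest in HI1 (0.24). Slc17a7, Camk2a and Rorb of cortical neurons differed by 0.12 ± 0.20, 0.15 ± 0.12 and 0.58 ± 0.22. In all, 0 genes of the 4 lists were called.

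Among the 11623 tested genes outside the set, the 10 closest to the member score over 8 libraries had Pearson correlations from 0.97 to 0.99, where the median of all was 0.06. They were Fmod, Mrgprf, Foxc2, Bmp7, Colec12, Slc13a4, Cpxm1, Gjb2, Thbs2 and Vtn. Without HI1 their correlations over 7 libraries were between 0.93 and 0.99. Foxc2, a forkhead transcription factor of mesenchyme, stood at 10.7 CPM in HI1 and from 0.128 to 2.98 in the other 7. Bmp7, a secreted growth factor, stood at 19.7 against 2.68 to 7.54 CPM, and Gjb2, the gap junction protein connexin 26, at 62.6 against 3.45 to 15.9 CPM. Slc13a4, a sulfate transporter, stood at 59.3 against 4.98 to 17.1 CPM, and Colec12, a scavenger receptor, at 40.5 against 3.44 to 9.53 CPM. Thbs2, a matrix glycoprotein, stood at 16.03 against 0.521 to 3.97 CPM. Mrgprf, a receptor gene, and Cpxm1, of the carboxypeptidase family, stood at 8.27 against 0.255 to 2.81 CPM and at 19.96 against 2.81 to 9.59 CPM. Of the 10, Fmod, Foxc2, Bmp7, Slc13a4, Gjb2 and Vtn were on the lists above.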

How the data were processed

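RNA-seq of medial prefrontal cortex homogenate from rats was deposited as 1 table per library. Per the file headers, each table gives estimated (expected) counts along with TPM and FPKM values; the FPKM values deposited by the authors were not used. The authors' expected counts are estimated reads that need not be whole, and from 10.8% to 11.4% per library were not. The authors' TPM values sum to a fixed total over all genes, ribosomal RNA included. The submitters' processing notes name Bowtie2 2.1.0. Counting program, build, annotation and strand setting: not given in the sources used here. Reads of overlapping or antisense genes may therefore be merged.

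Expected counts were rounded, scaled by TMM and filtered with filterByExpr (minimum count 10, minimum total 15) in edgeR 4.0.16 (R 4.3.3). HI was compared with LI on 11631 genes by the quasi-likelihood test with Benjamini-Hochberg adjustment and a threshold of 0.1, the alpha of the series' design text. Fold changes are log2 HI over LI, with SE the absolute value divided by the square root of F. CPM uses TMM-scaled library sizes, and scores use log2 CPM with a prior count of 2. Member correlations use log2(CPM + 0.5). The main fit was tried on simulated counts with the same dispersion for every gene and no outlying library, a setting unlike these data. DESeq2 1.42.0, limma 3.58.1 on log2(TPM + 1), Fisher's exact test, other filters, other scaling, a replicate block and each library left out were alternatives. So was a fit without the ribosomal RNA genes. Replicates of a group differed by more than sampling noise, and none were merged.

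The members and the 17 other gene lists were chosen with earlier results of these data known. Named genes are all members, in each list the 2 most abundant and the 2 with the largest absolute fold change among tested genes, and the 10 genes closest to the member score; some genes that the rule picks are not reported here. H19, Hpgds, Ttr, Kl, Folr1, Otx2, Clic6, Tmem72, Serpinh1, Loxl2 and Ms4a7 fall outside this rule and were chosen after their values were seen. The same holds for Kcne2, Cux2, Bcl11b and Fezf2.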

Additional observations from a re-analysis of the deposited data

Results flagged for a closer look

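Of 56 groups of 4 libraries checked for a library far from the other 3 (members, lists and their sums), 5 were picked out. For independent groups taken without regard to their values, about 1 in 20 would be. These groups share libraries and the members were chosen with HI1 in view, so that rate is no yardstick here. HI1 stood apart in HI for Ogn, at 75.1 CPM, and for Igf2, at 443 CPM. It also stood apart for the sum of the other meningeal and fibroblast markers, at 1039 CPM, while LI1 was apart and low for the same sum in LI, at 424 CPM. HI4 was apart and low in HI for the sum of retinoic acid pathway genes, at 195 CPM. The other 7 members were not picked out.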

How the results depend on the processing

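The 150 values of the 9 members under other settings were all above 0, and 149 moved by less than 1 SD between libraries. The exception was Ogn, at 0.53 with Fisher's exact test on summed counts without HI1. That yardstick is wide. Falls without HI1 from 1.48 to 0.28 (Igf2), from 1.67 to 0.48 (Ptgds) and from 1.89 to 0.63 (Col1a1) did not pass it. Lum had no value in the fits without HI1, HI2 or HI3. The difference in member score was 1.42, and from 0.82 to 1.89 when 1 library was left out, 0.82 being without HI1; without both HI1 and LI4 it was 1.17. Genes called were 0 under both scalings, all filters, the fit on TPM and each fit that left out a library. DESeq2 called 29 higher and 1 lower. Fisher's exact test called 1479 higher and 5117 lower, with 8 members and 112 genes of the other lists, and without HI1 1367 and 5666, with 6 members and 92 list genes. Without HI1 the medians of blood cell markers (-0.23), collagen processing (-0.01), transporters (-0.05), retinoic acid (-0.02) and astrocyte genes (-0.0014) were below 0. The settings that leave out HI1 in Fisher's test, and HI1 with LI4, were chosen after seeing the data.

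With the replicate number as a block, 0 genes were called, and the values ranged from 0.74 (Dcn) to 1.58 (Col1a2 and Slc6a13). Same-numbered libraries had correlations of deviations of 0.22, 0.54, -0.05 and 0.06. HI1 and HI2 stood at 0.22 to 0.54 with LI1 and LI2, at -0.53 and -0.59 with LI3 and at 0.02 and -0.12 with LI4. The highest correlation of an HI with an LI library was 0.78, between HI4 and LI3. These correlations cannot settle whether the numbers pair the libraries. Not every library correlated best with its own number. Lum, at 2 to 17 counts outside HI1, is limited by depth.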
